A study of Mus musculus with 38 samples.

Results

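The Cux2 locus of mouse liver was described from every histone mark peak that overlapped a 240 kb window, chr5:122290000-122530000 on genome build mm9, by 1 bp or more. This rule gave 98 peaks out of 384017 in 12 peak lists, 1 list per mark and sex. Livers came from mice of both sexes of the outbred CD-1 stock, aged 8 weeks, with no genotype or treatment in the labels. Chromatin immunoprecipitation sequencing (ChIP-seq) was done for 6 histone marks in 34 libraries. H3K4me1 and H3K4me3 had 4 male and 3 female libraries each, H3K27ac and H3K27me3 had 3 of each sex, and H3K36me3 and H3K9me3 had 2 of each sex. Libraries of the same mark and sex carry identical peak files, so each list is a single pooled value without spread between animals, and no sex difference could be tested over animals. The window was chosen by the authors' log2 sex ratios and calls of its peaks, so those values are a description and carry no test here.

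CUX2 is a homeobox transcription factor with CUT domains, DNA-binding repeats also found in CUX1 and in the ONECUT and SATB proteins, and it is known mainly as a repressor. In mouse liver the gene is known for expression in females, where plasma growth hormone is nearly continuous, and for little expression in males, where the hormone is secreted in pulses. H3K4me3 marks promoters, H3K4me1 marks enhancers and promoter flanks, H3K27ac marks active elements of both kinds, and H3K36me3 is laid down over transcribed gene bodies. H3K27me3 is the mark of Polycomb silencing, and H3K9me3 is the mark of heterochromatin.

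In RefSeq (GRCm38.p6) Cux2 lies on the minus strand between Pheta1, an adaptor protein gene, and Gm52786, a long non-coding RNA gene. A further long non-coding RNA gene, Gm52785, lies inside Cux2 on the opposite strand. Starts could be placed on mm9 only where a 35-base control read matched the promoter sequence exactly, which gave position 122299007 for Pheta1 and 122505126 for Gm52786. Cux2 is therefore transcribed from the Gm52786 end of the window towards Pheta1. Neither of the 2 Cux2 starts was placed, so peaks are given by position, and which of them lie on Cux2 exons, introns or starts was not determined here. The 250 bases before the Cux2 starts and before the Gm52786 start are shown, since the female peaks with promoter marks lie at that end of the window. Capitals mark matches to the motifs searched on both strands, which were the CUT protein motifs ATCGAT and, in a variant form, ATCAAT. The STAT motif TTCNNNGAA was also searched, and so was the TATA box, spelled TATAAA.

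Cux2 start 1: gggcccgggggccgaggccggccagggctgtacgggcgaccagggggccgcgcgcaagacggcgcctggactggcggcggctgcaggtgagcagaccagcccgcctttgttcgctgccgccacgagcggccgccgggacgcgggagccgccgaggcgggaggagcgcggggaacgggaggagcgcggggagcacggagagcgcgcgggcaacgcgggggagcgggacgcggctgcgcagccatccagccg
Cux2 start 2: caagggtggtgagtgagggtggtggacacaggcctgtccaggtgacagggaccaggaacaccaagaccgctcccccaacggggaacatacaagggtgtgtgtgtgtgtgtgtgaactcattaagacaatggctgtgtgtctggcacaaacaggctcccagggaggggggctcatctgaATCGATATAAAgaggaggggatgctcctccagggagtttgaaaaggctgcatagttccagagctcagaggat
Gm52786 start: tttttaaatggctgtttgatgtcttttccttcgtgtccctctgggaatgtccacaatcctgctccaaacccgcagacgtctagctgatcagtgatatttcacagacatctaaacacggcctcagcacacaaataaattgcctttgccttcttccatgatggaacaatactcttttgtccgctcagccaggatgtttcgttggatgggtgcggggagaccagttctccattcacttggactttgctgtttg

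Both Cux2 starts differ in base composition. The first has 80.0% G and C and 40 CpG dinucleotides, against a median of 6 over 32841 mouse promoters of the same length, and holds none of the motifs. The second has 55.2% G and C, with 3 CpG dinucleotides. It holds ATCGAT at bases 179 to 184 and TATAAA at bases 184 to 189, counted from the 5′ end of the printed sequence, so that the motifs share 1 base. Their first bases lie at -72 and -67 from the start, and whether TATAAA serves as a TATA box there was not tested. Of all these promoters 0.728% hold ATCGAT, 12.4% TATAAA, 6.72% ATCAAT and 7.02% TTCNNNGAA. The joined run ATCGATATAAA occurs in 1 of the 32841, the second Cux2 start. The motifs were chosen after the sequences had been seen, and a match of letters is not a measurement of binding.

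Active and repressive marks covered the window in opposite ways in the sexes. H3K4me1, H3K4me3, H3K27ac and H3K36me3, the active marks, together covered 49.1% of it in the female lists and 12.3% in the male lists. Islands of the repressive marks (H3K27me3 and H3K9me3) covered 91.8% of it in the male lists and 16.0% in the female lists. The log2 ratio given with each peak sets male against female signal, positive where males are higher, and a peak is called when that ratio is at least 1 in size with a p below 0.001. Of the 83 active-mark peaks, 29 were called female and 0 male in the authors' deposited table, where 1.74% of all peaks of these marks are called female. Of the 15 repressive islands 10 were called male and 0 female in the authors' deposited table, where 0.804% of all islands of these marks are called male. In whole tissue, more cells that carry a mark and more of the mark per cell cannot be told apart.

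**Figure D1:**
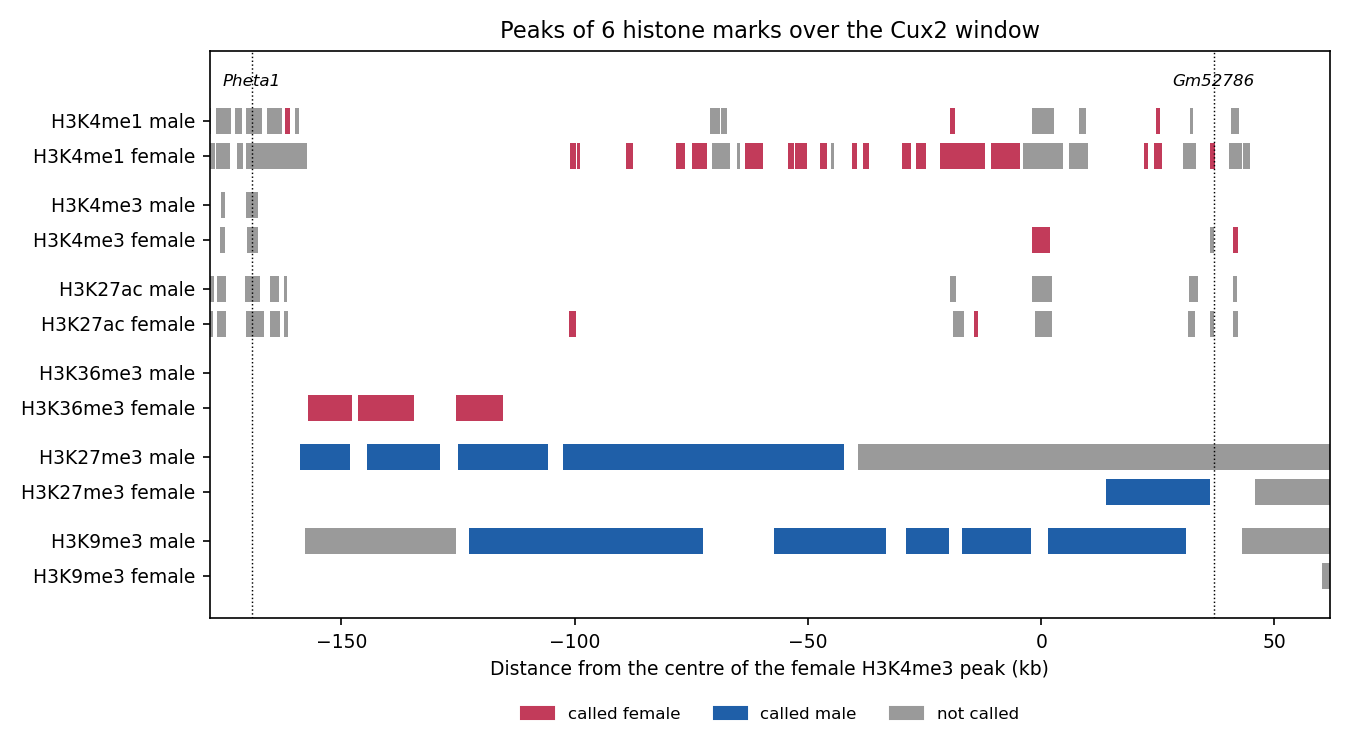
Peaks of the 12 lists across the window, 1 row per mark and sex, by distance in kb from the centre of the main female H3K4me3 peak. Red bars are called female, blue bars called male, grey bars not called, and dotted lines are the starts of Pheta1 and Gm52786. All red bars belong to active marks and all blue bars to H3K27me3 or H3K9me3.

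Promoter marking by H3K4me3 differed most at one place. The main female H3K4me3 peak, chr5:122466239-122470076, was 3838 bp long and held 592 tags at 33.07-fold enrichment, and no male H3K4me3 peak overlapped it. In the authors' deposited table its log2 ratio was -3.90 (p = 6.11e-129), the third lowest of the 18942 H3K4me3 peaks of the female list. By tags it ranked 2090 in that list, so its rank by sex ratio was far above its rank by strength. Whether a Cux2 start lies in it was not determined.

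H3K27ac and H3K4me1 were present at this peak in both sexes. H3K27ac lay at chr5:122466880-122470560 in males with 341 tags and at chr5:122466920-122470421 in females with 272 tags. Neither was called, with both at -0.23 in the authors' deposited table. A small male H3K27ac peak beside it, chr5:122466084-122466836 with 40 tags, had no female partner and a ratio of 0.56 in the authors' deposited table. The H3K27ac summits lay 907 bp (male) and 947 bp (female) to the higher side of the H3K4me3 summit, which is the upstream side on the strand of Cux2. H3K4me1 spanned the same place with 445 tags in males, chr5:122466197-122470898, and 1212 tags in females, chr5:122464332-122472886. Their ratios of -0.37 and -0.66 in the authors' deposited table were not called. Tag and read counts of single peaks, here and below, are not scaled for the total of each list. Over whole lists, H3K27ac peaks held 19253391 tags in males and 12837285 in females, and H3K4me1 peaks 12562838 and 20459697. Male and female counts set side by side are therefore not a measure of the sex difference.

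This pairing of sex-called H3K4me3 with uncalled H3K27ac was compared with the rest of the series. Of the 237 female-list H3K4me3 peaks called female, 160 had no male H3K4me3 peak. Of those 160, 71 had H3K27ac peaks in both sexes with no female call. Among these 71, the main female H3K4me3 peak of the window had the lowest H3K4me3 ratio in the authors' deposited table. The H3K4me3 ratio was among the values that chose the locus, so this rank is a description.

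Elsewhere H3K4me3 was shared or weak, and of the calls the main peak alone is left in the better-scoring 50% of the list. Of the 5 female H3K4me3 peaks 2 were called female, where 1.25% of the female list is called so, and 3 had no male partner, against 18.4% of the list. Neither of the 2 male peaks was called female, against 0.499% of the male list, and both had a female partner, which 8.96% of the male list lack. Male calls, at 4.46% of the male and 1.34% of the female list, were 0 here. The peak over the Pheta1 start held 308 tags in males, chr5:122297713-122300236, and 363 in females, chr5:122297864-122300398. The authors' deposited table gives this pair -0.23 and -0.25. A smaller pair nearby held 60 tags in males, chr5:122292329-122293305, and 93 in females, chr5:122292061-122293282, and was likewise not called. At the Gm52786 end, the female peak chr5:122509228-122510423 held 98 tags and was called female at -1.66 in the authors' deposited table. The female peak over the Gm52786 start, chr5:122504391-122505256, held 40 tags and missed the call at -0.86 (p = 0.034) in the authors' deposited table.

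H3K4me1, the enhancer mark, gave most of the calls. Of 33 female peaks 19 were called female in the authors' deposited table, where 3.88% of the female list is, and of 16 male peaks 3 were, where 0.501% of the male list is. Male calls make up 8.21% of the male list and 1.25% of the female list, and there were 0 here. With the better-scoring 50% of each list, 14 female-list calls and 0 male-list calls of H3K4me1 are left. Of the 33 female peaks 20 had no male partner, against 28.4% of the list, while each of the 16 male peaks had a female partner, which 15.2% of the male list lack. The male H3K4me1 of the window was thus nested in the female: 97.2% of its length lay inside female peaks, and 30.3% of the female length lay inside male peaks.

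The called peaks gathered on the Pheta1 side of the main H3K4me3 peak. In the 111.532 kb from chr5:122352800 to 122464331, a stretch set after the positions had been seen, the female list had 19 H3K4me1 peaks covering 40.0% and the male list 3 peaks covering 4.08%. Of these 19 female peaks 16 were called female, with ratios from -2.99 to -1.21 (median -2.22) in the authors' deposited table. Their tags ranged from 43 to 1916, with a median of 153. The first of them began 99.148 kb before the main H3K4me3 peak.

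A single long peak stood out by its read support. The female H3K4me1 peak chr5:122446506-122456115 was 9610 bp long and held 1916 tags at 20.51-fold enrichment. In the authors' deposited table its ratio was -2.55, and its p of 4.83e-273 was the smallest for the sex comparison in the female H3K4me1 list. The male list had 1 short peak inside it, chr5:122448566-122449746 with 75 tags, also called female at -1.60 in the authors' deposited table. The lowest ratios belonged to smaller peaks, chr5:122420760-122422148 with 139 tags and chr5:122438431-122440173 with 163 tags, both at -2.99 in the authors' deposited table. Next came chr5:122457444-122460583, with 434 tags and -2.75 in the authors' deposited table, which lies between the long peak and the main H3K4me3 peak. All 3 lacked a male partner, as did the small peaks chr5:122368566-122369292 (43 tags) and chr5:122430059-122431159 (88 tags), at -2.48 and -2.40 in the authors' deposited table.

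Within the same stretch some H3K4me1 was shared. The female peak chr5:122397566-122401479 held 640 tags with a ratio of -0.23 in the authors' deposited table. It overlapped 2 male peaks, chr5:122397201-122399390 with 258 tags and chr5:122399628-122400812 with 97 tags. Their ratios of 0.28 and -0.93 in the authors' deposited table differed in sign although they lie side by side, and neither was called. So 1 male peak with a ratio above 0 lay among 16 female-called peaks.

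On the Gm52786 side 3 of 7 female H3K4me1 peaks and 1 of 4 male peaks were called female. The male peak, chr5:122492755-122493582 with 38 tags, had the second lowest ratio of all 74275 peaks of the male list, -1.75, in the authors' deposited table. Its female partner, chr5:122492359-122494083, held 259 tags. On the Pheta1 side 0 of 6 female peaks and 1 of 8 male peaks were called. That male peak, chr5:122306148-122307075 with 52 tags, had -1.28 in the authors' deposited table, while its female partner of 1456 tags, chr5:122299031-122307925, had -0.61 and no call.

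The H3K4me1 peaks without a call lay between -0.93 and 0.28 in the authors' deposited table. Among them in the male list were chr5:122297765-122298919 (87 tags) beside the Pheta1 start and chr5:122508875-122510642 (177 tags) at the Gm52786 end, with -0.63 and -0.60 in the authors' deposited table. One of the best male scores belonged to chr5:122291379-122294406 (324 tags), at 0.03 in the authors' deposited table. The best-scoring male peaks of the window, this one and those at chr5:122397201 and chr5:122466197, all had female partners.

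**Figure D2:**
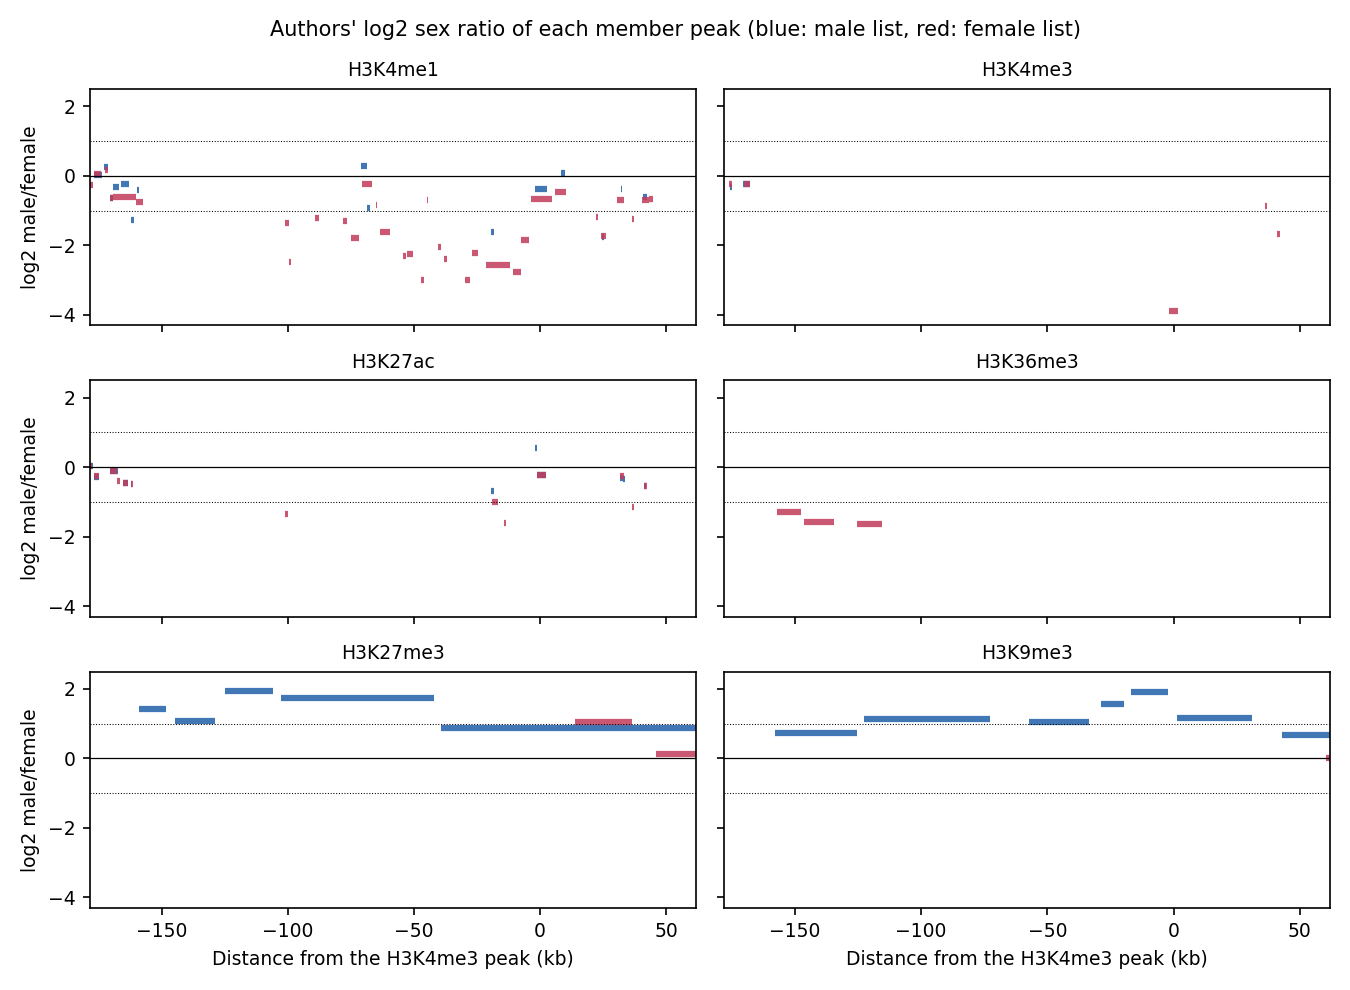
The authors' log2 ratio of male over female signal for each peak, 1 panel per mark, against distance in kb from the main female H3K4me3 peak. Bars span the peaks (blue male list, red female list), and dotted lines at 1 and -1 mark the size a call needs. H3K4me1 ratios fall to -2.99 on the left of the main peak, and H3K27ac at the main peak stays near -0.23.

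H3K27ac, the mark of active elements, differed least between the lists. Of 13 female peaks 2 were called female in the authors' deposited table, where 3.02% of the list is, and of 11 male peaks 0 were, where 0.861% is. Male calls, 1.74% of the male and 0.608% of the female list, were 0 here. Partners in the other sex were missing for 3 of the 13 female peaks (11.6% in the list) and for 1 of the 11 male peaks (21.2% in the list). The called peaks were chr5:122367030-122368373 with 96 tags and chr5:122453644-122454528 with 42 tags, at -1.35 and -1.61 in the authors' deposited table. The second lies inside the long female H3K4me1 peak. With the better-scoring 50% of the list 0 of these calls are left, and with a p below 1e-06 there is 1. In that long peak also lay a shared H3K27ac site with 150 female tags, chr5:122449143-122451600, and 70 male tags, chr5:122448552-122449982. Its female peak missed the call by its size alone, at -0.99 (p = 9.36e-07) in the authors' deposited table.

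Most female-called H3K4me1 peaks had no H3K27ac. Of the 19 in the window 3 overlapped a female H3K27ac peak (15.8%), and over the whole series 519 of 3219 did (16.1%). The H3K27ac peak with most tags that overlapped the window was at its Pheta1 edge and shared, with 1441 tags in males, chr5:122283097-122290899, and 980 in females, chr5:122283110-122290753. Most of its length and its summit lie outside the window in both lists. The Pheta1 start carried 462 male and 337 female tags, with ratios of -0.12 and -0.10 in the authors' deposited table. Over the Gm52786 start a female peak without male partner, chr5:122504408-122505223 with 41 tags, had -1.14 but a p of 0.0036 in the authors' deposited table and was not called.

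The remaining H3K27ac named here was in both sexes, with ratios on the female side and no call. Near Pheta1 a site held 217 tags in males, chr5:122302831-122304889, and 210 in females, chr5:122302820-122304919, at -0.47 and -0.46 in the authors' deposited table. A smaller one beside it held 31 and 38 tags, chr5:122305950-122306606 and chr5:122305911-122306776, both at -0.50 in the authors' deposited table. At the Gm52786 end 50 male tags, chr5:122509250-122510149, faced 55 female tags, chr5:122509271-122510293, with -0.55 and -0.54 in the authors' deposited table. This last site lies under the female-called H3K4me3 peak, so there too H3K4me3 was called and H3K27ac was not. Its H3K27ac rests on few tags, with p of 0.074 (male list) and 0.065 (female list) in the authors' deposited table. The missing call there does not show equal H3K27ac in the sexes. The male peak chr5:122500929-122501752 (38 tags) had -0.33 in the authors' deposited table.

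H3K36me3, the mark of transcribed bodies, appeared in the female list alone. Its 3 islands were chr5:122311000-122320399, chr5:122321800-122333799 and chr5:122342800-122352799, and the male list, with 0.0353% of its islands called female, had 0 islands in the window. They held 223, 313 and 217 reads, against 110, 125 and 81 control reads. All 3 were called female, at -1.30, -1.59 and -1.65 in the authors' deposited table, where 0.451% of the female list is called so and 0.00525% is called male. None had a male partner, which 6.99% of the list lack. The islands were weak, at 1.38-fold to 1.82-fold over control, and by score they stood at 94.1%, 69.4% and 73.1% of their list, counted from the best. None of the 3 calls is left when only the better-scoring 50% of each list is kept. They lie towards Pheta1, the direction in which Cux2 is transcribed, and in their 41.8 kb neither sex had a peak of H3K4me1, H3K4me3 or H3K27ac.

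H3K27me3 covered the locus in males. The 5 male islands covered 86.3% of the window, and the 2 female islands a share of 16.0%. From the Pheta1 side, the first was chr5:122309200-122319999 with 312 reads, and the next was chr5:122323600-122339199 with 405 reads. Then came chr5:122343200-122362399 with 531 reads and chr5:122365600-122425999 with 1982 reads. The last, chr5:122428800-122589199 with 5495 reads, began before the main H3K4me3 peak and ran 59.199 kb past the window. The first 4 were called male, at 1.41, 1.07, 1.93 and 1.75 in the authors' deposited table, where 0.798% of the male list is, and the last was not called at 0.87. Female calls, 0.00998% of the male list and 0.041% of the female list, were 0 here. Those 4 had no female partner, against 19.5% of the list. In the same order they were 1.22-fold, 1.43-fold, 1.91-fold and 2.34-fold over control. By score they stood at 97.5%, 68.2%, 23.1% and 1.40% of their list, counted from the best. With the better-scoring 50% of the lists, 2 of the 4 male-list calls and 0 female-list calls of H3K27me3 are left.

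In females H3K27me3 was restricted to the Gm52786 end. The female list had no island in the first 192.0 kb of the window, main H3K4me3 peak included. Its first island, chr5:122482000-122504399 with 494 reads, was called male at 1.04 in the authors' deposited table. Only 0.0205% of the female list is called male, and this island had the third highest ratio of that list. The second, chr5:122514000-122588399 with 2127 reads, lay mostly beyond the window and had 0.13 in the authors' deposited table, not called. Between them was a gap of 9.6 kb that held the Gm52786 start, the female H3K27ac peak over it, all but the first few bases of the H3K4me3 peak over it, and the called H3K4me3 peak chr5:122509228-122510423.

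H3K9me3 also covered much of the locus in males. Its 7 male islands covered 74.5% of the window. Of that length 92.6% lay inside male H3K27me3 islands, near the 86.3% of the whole window that those islands covered. All 7 overlapped male H3K27me3, as did 6590 of the 10875 male H3K9me3 islands of the series (60.6%). From the Pheta1 side the first 4 were chr5:122310400-122342799 with 263 reads, chr5:122345600-122395599 with 377, chr5:122410800-122434799 with 187 and chr5:122439200-122448399 with 90. The other 3 were chr5:122451200-122465999 with 189 reads, chr5:122469600-122499199 with 289 and chr5:122511200-122532399 with 193. Of the 7, 5 were called male in the authors' deposited table, where 3.42% of the male list is and 0.0276% is called female. The called ratios ran from 1.06 to 1.92 in the authors' deposited table, and the first and last islands, at 0.73 and 0.67, were not called. Partners were lacking for 6 of the 7, against 39% of the list.

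The highest H3K9me3 ratio, 1.92 in the authors' deposited table, belonged to chr5:122451200-122465999, which ends just before the main H3K4me3 peak. Between this island and the next, the male list had no H3K9me3 over most of that peak. The female list had 1 island, chr5:122528400-122530399 with 54 reads, at the edge of the window, with a ratio of 0.01 in the authors' deposited table. It had no call, where 0.0624% of the female list is called male and 2.24% female, and it had a male partner, which 60.3% of that list lack.

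**Figure D3:**
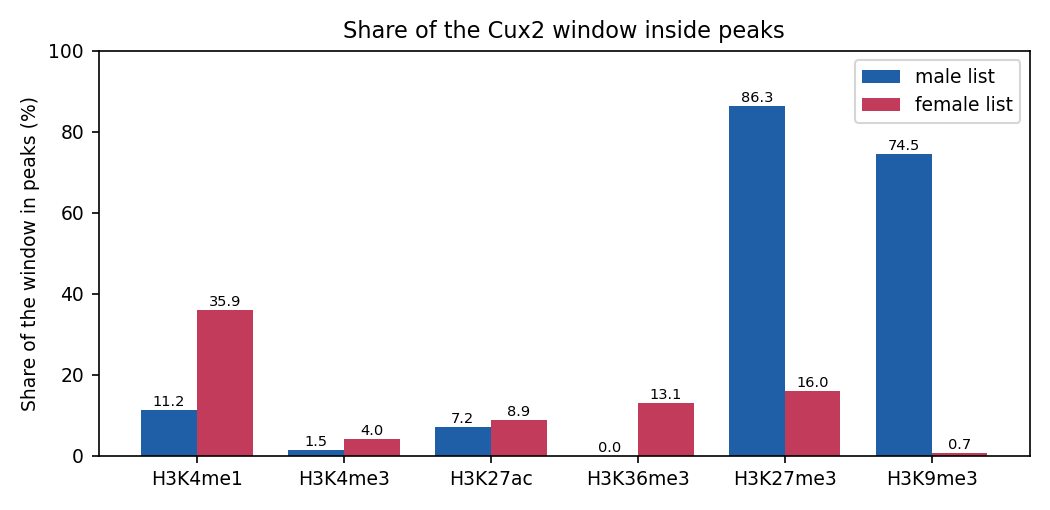
Share of the 240 kb window inside peaks, in percent, for the male list (blue) and the female list (red) of each mark. The female bar is higher for the 4 active marks, least so for H3K27ac, and the male bar is higher for H3K27me3 (86.3% against 16.0%) and H3K9me3 (74.5% against 0.667%).

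The male H3K9me3 islands were wide and thin. They held 7.54 to 12.8 reads per kb, with 6.62 to 11.3 control reads per kb in the same islands, where the median over the male list was 8.33 control reads per kb. The authors' fold over control, which also scales for library size, was 1.7 to 3.98. Control reads per kb of the male H3K27me3 islands ran from 7.25 to 12.2, around their list median of 9.07, and their own reads from 26.0 to 34.3 per kb. In the 1 control IgG library with aligned reads, from a male, the window had 2.78 reads per kb, 0.635 of the autosomal mean. The part of the control level in these results was not tested.

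Female-called active peaks lay largely on ground that male islands covered. Of the 19 female-called H3K4me1 peaks of the female list 18 overlapped a male H3K27me3 island (94.7%). Over the whole series 850 of 3219 such peaks did (26.4%). Male H3K27me3 islands covered 86.3% of the window, and 27 of all 33 female H3K4me1 peaks, called or not, overlapped one. A male-called H3K27me3 island lay over 9 of the 19 (47.4%), against 124 of 3219 (3.85%), since the long island over the main H3K4me3 peak was not called. A male-called H3K9me3 island lay over 17 of the 19, against 50 of 3219 in the series (1.55%). Male H3K9me3 islands, called or not, covered 74.5% of the window and overlapped 23 of the 33 female H3K4me1 peaks. All 3 female H3K36me3 islands overlapped male-called H3K27me3, as did 38 of the 86 female-called H3K36me3 islands of the series (44.2%). All 3 also overlapped male H3K9me3, which 9 of the 86 did (10.5%), but a male-called H3K9me3 island lay over 1 of the 3, the only such overlap among the 86. The window was chosen for its calls and its neighbouring peaks share the same wide islands, so these shares describe the locus and were not tested.

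Set against the rest of the autosomes, the calls were dense. The autosomes were divided into 9750 tiles of 240 kb that held a peak, aligned on the window. With 29 female calls of active marks, the window was equalled or exceeded by 1 other tile, and the highest tile had 61. Its 10 male calls of repressive marks and 5 male H3K9me3 calls were reached by 0 other tiles. Its 22 female H3K4me1 calls were reached by 1 other tile and its 5 male H3K27me3 calls by 6 others, its 3 female H3K36me3 calls by 10, its 2 female H3K4me3 calls by 83 and its 2 female H3K27ac calls by 315. The window was drawn around its calls, which favours its counts.

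**Figure D4:**
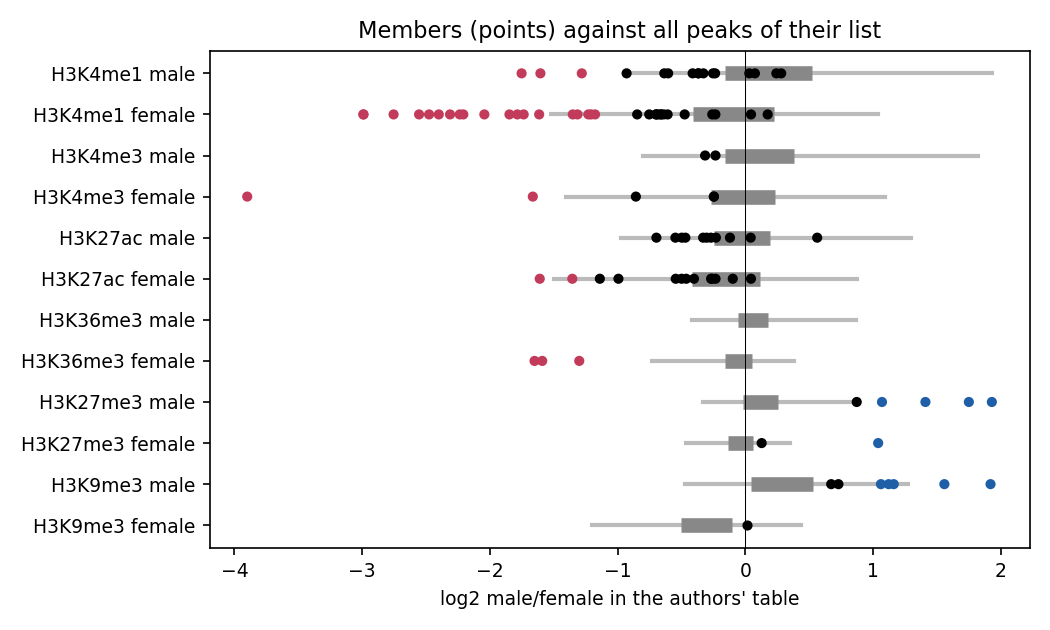
Authors' log2 ratio of male over female signal for the peaks of the window (points; red called female, blue called male, black not called), beside all peaks of each list (thick bar, middle 50% of peaks; thin line, central 98%). Red points of the female H3K4me1 and H3K4me3 lists reach -2.99 and -3.90, and the 4 highest male H3K27me3 points lie past the thin line.

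Reads were also summed over the peaks of each list and scaled to 1000000 reads in all its peaks. Such sums follow how much of the window was called in each sex, so they describe the lists and are no independent support for the ratios above. H3K4me1 had 214 scaled reads in the male and 567 in the female peaks, a log2 male over female ratio of -1.40, with a 95% interval of -1.46 to -1.34 that covers counting error only. H3K4me3 gave -1.69 (-1.86 to -1.52), H3K27ac -0.35 (-0.43 to -0.28) and H3K27me3 1.88 (1.82 to 1.94). For every mark, the reads of peaks and islands that reach beyond the window were counted whole. A shared H3K27ac peak that lies mostly outside the window held 1441 of the 2930 male and 980 of the 2495 female reads. For H3K9me3 the sums were 1588 reads in 7 male islands and 54 in 1 female island, so their ratio is no fold change of the mark. Ratios were also taken per kb of covered length, with peaks counted whole, relative to the reads per kb of each whole list. They were then near 0 for H3K4me1 (-0.054) and H3K27ac (0.052), -0.23 for H3K4me3, 0.38 for H3K27me3 and -1.26 for H3K9me3. H3K36me3 had no male island and so no ratio.

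The edges of the window fell among shared peaks. Just outside it on the Pheta1 side lay an H3K4me3 peak of 726 tags in males, 0.124 kb away, with a ratio of 0.05 in the authors' deposited table. The nearest H3K36me3 island outside that edge was also in both lists. Beyond the Gm52786 end the next H3K4me1 peak lay 51.357 kb away in males and 50.741 kb away in females, and neither was called.

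The marks at other genes were used to check the tissue and to place the locus among related genes, for those starts that control reads could place. Of 12 hepatocyte markers 8 were placed, Alb among them, and all 8 carried H3K4me1, H3K4me3 and H3K27ac in both sexes. The only gene among them with a call in active marks was Alb, the albumin gene, whose H3K4me3 was called male at 1.46 (male list) and 1.42 (female list) in the authors' deposited table. Of 14 markers of other tissues and cell types 3 were placed (Neurod1, Syt1 and Ptprc), and 0 carried H3K4me3. Ptprc, a leukocyte gene, carried H3K27ac in both sexes, and Neurod1 carried H3K4me1 in the female list. H3K27me3 lay over all 3 in the female list, and over Neurod1 and Syt1 in the male list. Of 7 CUT domain genes only Onecut1 was placed. Its start had no H3K27me3 or H3K9me3 island in either sex, and its H3K4me1 was called male in the male list, at 1.01, and not in the female list, at -0.04, in the authors' deposited table. Of 22 genes of growth hormone signalling and liver transcription 15 were placed, and all 15 had H3K4me3 and H3K27ac in both sexes, with 0 calls in active marks and 0 repressive islands.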

How the data were processed

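Per the submitters' processing notes, Bowtie, SICER 1.1 and genome build mm9 were used. SICER islands (H3K36me3, H3K27me3, H3K9me3) and MACS-type peaks (H3K4me1, H3K4me3, H3K27ac; caller version not given in the sources used here) were deposited as 1 pooled list per mark and sex. Read and tag counts in peaks were deposited by the authors, and many H3K27ac tag counts were rounded to 3 significant digits. Per the file headers, each peak also has a score, a p-value or false discovery rate in percent, and a fold ratio over control. Log2 male over female ratios with their sex p-values and calls are the authors' deposited values, whose normalization was not stated in those sources. Those p-values compare pooled libraries, not animals. The male IgG library, deposited as aligned reads in an earlier record, held 11201113 reads of 35 bases.

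Overlaps, covered lengths and read sums were computed with Python 3.11.15 and pandas 2.3.3 and tested on simulated data. Partners are peaks of the other sex overlapping by 1 bp or more. Named were all H3K4me3, H3K36me3, H3K27me3 and H3K9me3 peaks, and for H3K4me1 and H3K27ac chiefly the 6 per list with the largest absolute log2 ratio and the 3 best scores; their other peaks given by position were chosen after their values were seen, as were the stretches and motifs. The window, lists and rules were chosen with earlier results of these data known. Alternatives covered overlap, score, window, call, list length, scaling and control settings. Neither the remaining 3 IgG libraries nor any sex chromosome was analysed here.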

Additional observations from a re-analysis of the deposited data

How the results depend on the processing

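The opposite covering by active and repressive marks held under both alternatives tried for it. With the better-scoring 50% of each list, 57 peaks were left of 98, with 15 female calls of active marks, 14 of them in the female H3K4me1 list and 1 in H3K4me3, and 13 female peaks without a male partner. No call of H3K36me3, H3K27ac, male-list H3K4me1 or female-list H3K27me3 was left. Coverage was then 9.24% (male) and 32.0% (female) for active marks, and 91.3% (male) and 6.67% (female) for repressive marks. With the longer list of each mark shortened to the shorter, male coverage was 11.9% for active and 91.3% for repressive marks. Requiring a log2 ratio of at least 2 in size left 11 female calls of active marks and 0 male calls of repressive marks. Per kb of covered length, the read ratio was -0.054 for H3K4me1, -0.23 for H3K4me3, 0.38 for H3K27me3, and of the opposite sign for H3K27ac (0.052) and H3K9me3 (-1.26). These ratios divide out covered length, with peaks counted whole, and also the reads per kb of each whole list. By their definition they differ from the ratios of scaled read sums only through peak length, in the window and in the whole lists. The H3K9me3 value rests on 1 female island. The total of female calls of active marks and that of male calls of repressive marks stayed within 1.5 times under the midpoint rule, the shortened window, p below 1e-06, centring and merging, while the female H3K27ac calls fell from 2 to 1 with p below 1e-06. Centring on shared peaks took 1 male call, the H3K9me3 island chr5:122410800-122434799. No paired analysis was possible because the files of a mark and sex are identical and give 1 list without replicates, and for the same reason no replicate could be left out. Peaks of about 40 tags, such as those at the Gm52786 start, rest on few reads.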
